A study of Rattus norvegicus with 11 samples.

Results

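The 4 smooth muscle contractile genes Acta2, Tagln, Cnn1 and Myh11 were read by 9 of the 8799 probe sets on a rat expression array, which named 4736 genes by a symbol of their own, a probe set being a group of short probes combined into 1 reading. The probe sets of these genes were chosen by symbol alone, as all those whose platform annotation gives 1 of these 4 symbols and no other. Acta2 had 3 such probe sets, Tagln 2, Cnn1 1 and Myh11 3. A further 4 probe sets carried both Acta2 and the cardiac actin gene Actc1 as symbols and are given apart. The RNA came from the ventricle of rats of the inbred strain Fischer-344, with 6 arrays from old rats of 22 months and 5 from young rats of 4 months. No treatment or genotype is named in the labels for either group. Nothing in the labels says that each array is a separate animal, so the p-values measure only how far these samples spread, and that spread may be technical.

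In smooth muscle, force comes from a smooth muscle myosin moving along actin filaments, switched on by phosphorylation of the myosin light chain when calcium rises. Acta2 encodes the smooth muscle alpha actin of the thin filament and Myh11 the smooth muscle myosin heavy chain. Tagln encodes transgelin, also called SM22, and Cnn1 encodes calponin 1, both of them actin-binding proteins of the smooth muscle thin filament. In a heart ventricle these transcripts are found mainly in the walls of coronary arteries and arterioles. Pericytes and activated fibroblasts can also make Acta2 and Tagln, while Myh11 and Cnn1 are more restricted to mature smooth muscle. Many smooth muscle promoters are controlled by serum response factor, which binds a short sequence called the CArG box together with its partner myocardin.

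The upstream sequences of Acta2 and Cnn1 are shown because the arrays on which both genes were high were largely the same, as described below. RefSeq's promoter table of assembly GRCr8 held 2 of the 4 members, and those of Tagln and Myh11 are not used here. Each run is the 250 bases before the annotated start of the gene, 5′ to 3′ on the strand of the gene. Acta2 lies on the minus strand (chr1:241172504-241172753) and Cnn1 on the plus strand (chr8:28908187-28908436). Capitals mark matches to the CArG box with at most 1 G or C among the 6 bases of its A and T core. The motif reads the same in both directions, so both strands were searched at once.

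Acta2: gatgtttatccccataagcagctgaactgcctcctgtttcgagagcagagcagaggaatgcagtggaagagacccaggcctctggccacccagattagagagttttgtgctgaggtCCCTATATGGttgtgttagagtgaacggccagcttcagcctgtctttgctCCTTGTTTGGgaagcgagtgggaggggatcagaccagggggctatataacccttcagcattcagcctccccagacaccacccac
Cnn1: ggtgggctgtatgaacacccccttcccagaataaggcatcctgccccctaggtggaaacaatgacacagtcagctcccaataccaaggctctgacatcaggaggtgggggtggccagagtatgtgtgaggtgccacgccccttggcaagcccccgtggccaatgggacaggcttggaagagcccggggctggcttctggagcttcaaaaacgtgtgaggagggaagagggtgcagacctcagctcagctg

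The Acta2 window held 2 such matches, which begin 134 and 84 bases before the start of the gene, and the Cnn1 window held 0. With no G or C allowed in the core, both windows held 0. Of 33469 rat promoters in the table, 8.08% held a match with at most 1 G or C in the same 250 bases, 0.693% held 2 or more, and 1.50% held an exact match. These letters describe the windows and are not a measure of binding.

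A pair of old arrays stood apart before any gene was compared. The control probe sets for GAPDH, whose 3' over 5' ratio rises as RNA is degraded, gave log2 ratios of 3.39 in old replicate 3 and 4.09 in old replicate 4, against 0.07 to 0.77 in the other 9 arrays. The actin controls were also higher in these arrays, at 1.98 and 1.82 against -0.40 to 0.89 in the other 9. The hexokinase controls went the other way, at -0.93 and -4.16. The bacterial spike-in controls fell into a bright class of 5 arrays, holding 4 old arrays (replicates 3 to 6) and young replicate 4, and a dim class of 6. The results that rest on old replicates 3 and 4 are therefore given with and without them, and the part that RNA quality plays in them was not tested.

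No member differed between the ages after adjustment over all probe sets. Of the 9 member probe sets 7 were bright enough to be tested, and all 7 of these tested ones had a higher mean in old, by 0.25 to 1.50 on the log2 scale. Limma called 0 of the 7 at an adjusted p of 0.05, and 0 of the 7 had an unadjusted p under 0.05. Over all 5244 probe sets tested 0 were called, which is 0%, and 7.51% had an unadjusted p under 0.05. The median difference of the 7 was 0.99, and that of all tested probe sets was -0.010. The old and young arrays overlapped for all 7, and over all tested probe sets they did not overlap for 0.973%. In RNA from whole ventricle, a change in the number of smooth muscle cells and a change in RNA per cell cannot be told apart.

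Acta2, the smooth muscle actin, was read most brightly by rc_AA900769_s_at, which stands for the gene here. Its log2 intensity in old arrays ran from 8.64 to 13.74 with a median of 10.21, the highest being old replicate 4 and the next old replicate 3 at 12.08. The young arrays read 11.13, 10.16, 9.51, 7.54 and 9.85 for replicates 1 to 5. Only old replicates 3 and 4 exceeded the highest young array, and the other 4 old arrays lay within the young range. The old mean was 10.63 ± 1.95 (SD, n = 6), the young mean 9.64 ± 1.32 (SD, n = 5), and old minus young 0.99 ± 0.75 (SE, limma adjusted p = 0.776). Without old replicates 3 and 4 the old mean was 9.49 ± 0.85 (SD, n = 4) and the difference turned to -0.14 ± 0.60 (SE). It was 3.73 ± 1.12 (SE) among the bright arrays, which hold only 1 young array, and -0.82 ± 0.53 (SE) among the dim ones.

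The other Acta2 probe sets come from the coding sequence, which the actins share in large part, so that they may also read related actins. X06801cds_f_at differed by 0.58 ± 0.42 (SE, limma adjusted p = 0.763), with old arrays from 9.17 to 11.01 and young arrays from 8.33 to 9.95. X06801cds_i_at differed by 0.30 ± 0.71 (SE, limma adjusted p = 0.938), with old arrays from 5.57, the floor of the scale, to 10.69 and young arrays from 7.39 to 9.95. Old replicate 4 was the highest array on both. Without old replicates 3 and 4 these differences were 0.23 and -0.19.

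Tagln, the transgelin gene, gave the smallest p-values of the members, 0.0690 and 0.0793 before adjustment in limma. M83107_at stands for it and ran from 7.57 to 10.87 in old with a median of 9.04, again with old replicates 4 and 3 as the highest arrays, at 10.87 and 10.20. The young arrays read 8.62, 9.02, 7.08, 7.15 and 7.95 for replicates 1 to 5. Of the old arrays 3 lay above every young array and 3 did not. The old mean was 9.08 ± 1.31 (SD, n = 6), the young mean 7.96 ± 0.86 (SD, n = 5), and old minus young 1.12 ± 0.60 (SE, limma adjusted p = 0.675). The second probe set, M83107_g_at, differed by 1.50 ± 0.78 (SE, limma adjusted p = 0.661), and on it 5 of 6 old arrays lay above every young array. Old replicate 6 was the exception, at the floor of 5.57, while the young arrays ran from 6.27 to 8.22. Without old replicates 3 and 4 the differences of the Tagln probe sets were 0.39 ± 0.58 (SE) and 0.46 ± 0.73 (SE). Within the dim arrays M83107_at differed by 0.28 ± 0.65 (SE) and within the bright arrays by 2.24 ± 1.18 (SE).

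Cnn1, the calponin gene, had the single probe set D14437_s_at. Its old arrays ran from the floor of 5.57 to 10.13 with a median of 8.54, and old replicates 3 and 4 were highest at 10.13 and 9.25. The young arrays read 7.66, 8.61, 7.34, 6.72 and 5.57 for replicates 1 to 5. Old replicate 6 and young replicate 5 both sat at the floor, so the lowest array of each age had no measured level, while 3 old arrays lay above every young one. Old arrays averaged 8.28 ± 1.58 (SD, n = 6) against 7.18 ± 1.13 (SD, n = 5), so that they were higher by 1.10 ± 0.73 (SE, limma adjusted p = 0.748). The difference was 0.40 ± 0.76 (SE) without old replicates 3 and 4, 0.66 ± 0.79 (SE) within the dim arrays and 1.73 ± 1.56 (SE) within the bright arrays.

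Myh11, the smooth muscle myosin heavy chain and the most specific smooth muscle marker of the 4, showed the smallest difference among the probe sets that stand for a gene. X16262_s_at ran from 5.70 to 10.27 in old with a median of 8.78, with old replicates 3 and 4 highest at 10.27 and 9.65 and old replicate 5 lowest. The young arrays read 6.51, 9.29, 7.64, 7.93 and 8.77 for replicates 1 to 5. Of the old arrays 3 lay above every young array and 2 below every young array. Old arrays averaged 8.28 ± 1.84 (SD, n = 6) and young arrays 8.03 ± 1.07 (SD, n = 5), which left 0.25 ± 0.76 (SE, limma adjusted p = 0.955), and it turned to -0.59 ± 0.76 (SE) without old replicates 3 and 4. It was 0.73 ± 0.75 (SE) within the dim and 0.088 ± 1.66 (SE) within the bright arrays.

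The other Myh11 probe sets, S61948_s_at and X16261_i_at, were too dim for the test. S61948_s_at had a mean of 6.61, below the filter on dim probe sets, and 2 arrays at the floor. X16261_i_at had 9 of 11 arrays at the floor and gave no usable level. When every probe set was kept, S61948_s_at differed by 0.46 ± 0.58 (SE, limma adjusted p = 0.85). S61948_s_at and X16262_s_at did not follow each other across arrays (r = -0.244), and old replicate 5, the lowest old array on X16262_s_at, was the highest on S61948_s_at at 8.32. The Myh11 values therefore rest on 1 probe set that the other measured one did not match.

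**Figure D1:**
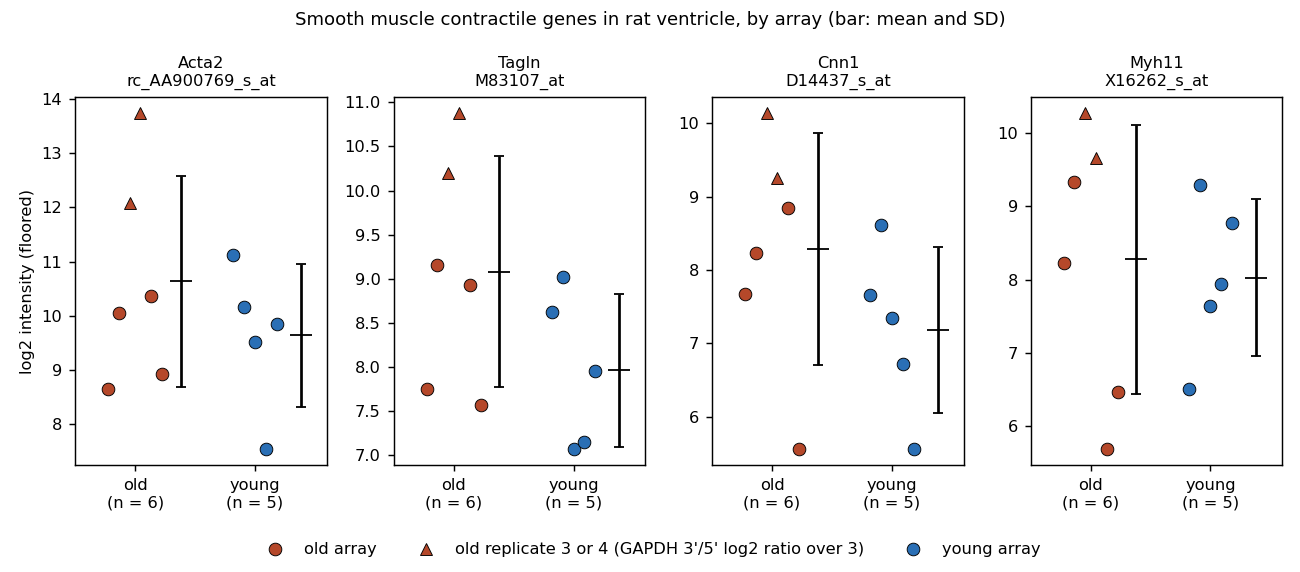
Log2 intensity of the probe set that stands for each gene on every array, with old arrays in red and young arrays in blue, and a black bar for the mean and SD of each group. In all 4 panels old replicates 3 and 4 (triangles) are the highest arrays, and the other old arrays overlap the young ones.

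**Figure D2:**
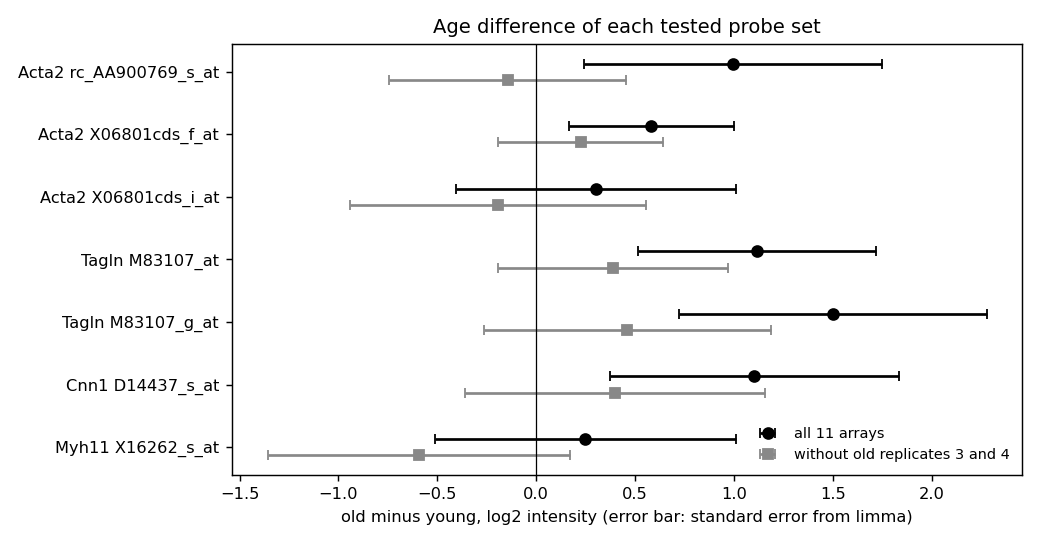
Difference of old minus young in log2 intensity for the 7 tested probe sets, with the standard error from limma, over all 11 arrays (black) and without old replicates 3 and 4 (grey). The black points run from 0.25 to 1.50, and the grey points from -0.59 to 0.46.

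Old replicates 3 and 4 were the highest arrays for 5 of the 7 tested member probe sets, those that stand for the 4 genes and the second one of Tagln. Over all tested probe sets they were the highest for 5.09% and the lowest for 6.31%. The member levels varied widely within an age group. The pooled within-group SD was 1.70 for Acta2, 1.13 for Tagln, 1.40 for Cnn1 and 1.54 for Myh11 on the probe sets that stand for them, against a median of 0.90 over all tested probe sets. A larger SD was found in 1.30% of tested probe sets for Acta2, 25.3% for Tagln, 6.90% for Cnn1 and 2.97% for Myh11. The brightest array read 73.1 times the dimmest for Acta2 and 13.9 times for Tagln.

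On the probe sets that stand for the genes, Acta2, Tagln and Cnn1 moved together from array to array. Myh11 followed them less closely by the values below, a contrast that was not itself tested and that depended on the choice of probe set. Over the 11 arrays the 6 pairs of genes were compared by Pearson's r and Spearman's rho, with two-sided permutation p-values adjusted over the 6 pairs. Acta2 and Tagln had r = 0.908 (permutation p = 1.3e-04, adjusted p = 7.8e-04) and rho = 0.845 (permutation p = 0.00195, adjusted p = 0.00849). Tagln and Cnn1 had r = 0.797 (permutation p = 0.00345, adjusted p = 0.0103) and rho = 0.820 (permutation p = 0.00283, adjusted p = 0.00849). Acta2 and Cnn1 had r = 0.675 (permutation p = 0.0220, adjusted p = 0.0440) and rho = 0.747 (permutation p = 0.0114, adjusted p = 0.0227). These 3 pairs passed on both measures.

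On the probe sets that stand for the genes, the pairs with Myh11 did not pass on Pearson's r over the 11 arrays. Without old replicate 5, Myh11 passed with Tagln (r = 0.699) and with Cnn1 (r = 0.696), at an adjusted permutation p of 0.0331 for both, and did not pass with Acta2. The values that follow are for all 11 arrays. Myh11 had r = 0.524 with Tagln (permutation p = 0.0983, adjusted p = 0.147), 0.425 with Cnn1 (permutation p = 0.192, adjusted p = 0.230) and 0.396 with Acta2 (permutation p = 0.231, adjusted p = 0.231). By rank, Tagln and Myh11 had rho = 0.664 (permutation p = 0.0311, adjusted p = 0.0466). The rho of Myh11 was 0.515 with Cnn1 (permutation p = 0.109, adjusted p = 0.131) and 0.391 with Acta2 (permutation p = 0.237, adjusted p = 0.237).

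With each age group's mean taken out first, 2 of these 3 pairs still passed. The r of the deviations was 0.911 for Acta2 and Tagln (adjusted permutation p = 6.6e-04) and 0.753 for Tagln and Cnn1 (adjusted permutation p = 0.0197). For Acta2 and Cnn1 it was 0.633 and did not pass (adjusted permutation p = 0.0733). With the spike-in class taken out as well, these values were 0.910, 0.753 and 0.632, and Acta2 and Cnn1 again did not pass (adjusted permutation p = 0.0727). Among the 6 old arrays alone Acta2 and Tagln had r = 0.974 (exact permutation p = 0.00556), and among the 5 young ones r was 0.733.

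The values were lower without the arrays that stood apart. Without old replicates 3 and 4 (9 arrays) Acta2 and Tagln had r = 0.740 (exact permutation p = 0.0209, adjusted p = 0.125). Tagln and Cnn1 had r = 0.665 (exact permutation p = 0.0580, adjusted p = 0.174), and Acta2 and Cnn1 had r = 0.438 (exact permutation p = 0.240, adjusted p = 0.480). No pair passed after adjustment on these arrays. The pairs with Myh11, read by X16262_s_at, fell to 0.118 with Tagln, 0.030 with Cnn1 and -0.145 with Acta2. The dimmer S61948_s_at of Myh11, which lay below the filter, had r = 0.444 with Acta2 and 0.370 with Tagln on these arrays. Over all 11 arrays these were 0.544 and 0.473. With Cnn1 it had r = 0.082 on these arrays and 0.178 over all 11. The S61948_s_at values have no test. When the 2 arrays farthest from the median of Acta2 were left out instead (old replicate 4 and young replicate 4), Acta2 and Tagln had r = 0.823, Acta2 and Cnn1 0.671 and Acta2 and Myh11 0.292. The 2 arrays farthest from the median of Tagln were old replicates 3 and 4 themselves. For Cnn1 they were old replicate 3 and young replicate 5, without which Cnn1 and Myh11 had r = 0.417. Within the 6 dim arrays r was 0.574 for Acta2 and Tagln, 0.528 for Tagln and Cnn1 and 0.125 for Acta2 and Cnn1. Within the 5 bright arrays it was 0.989, 0.878 and 0.801 for the same pairs.

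**Figure D3:**
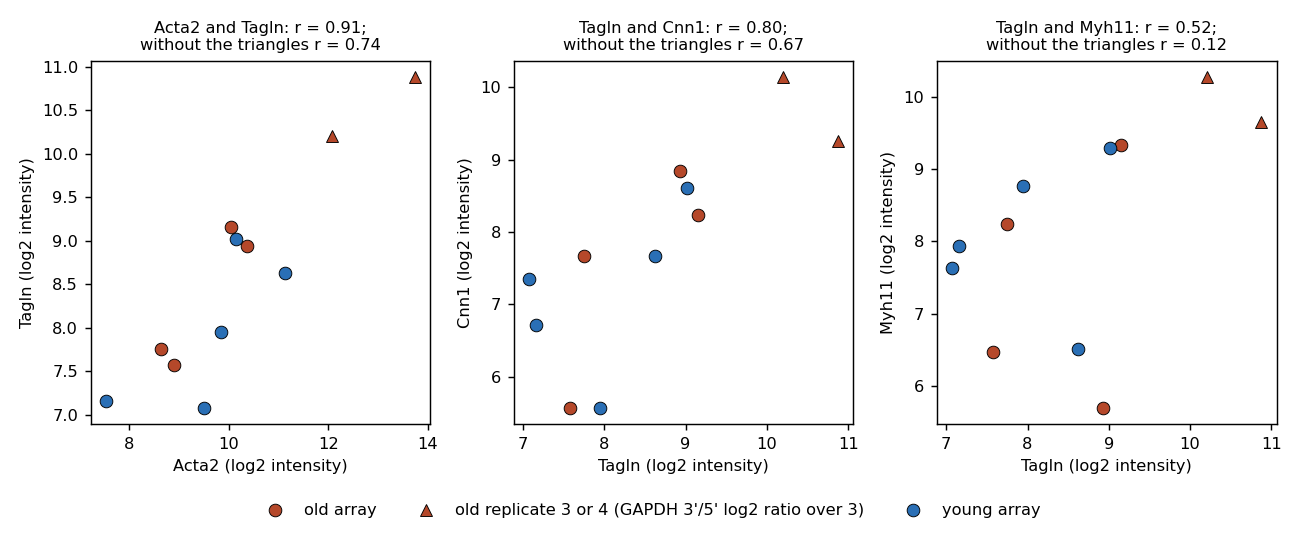
Log2 intensity of 1 gene against another, with 1 point per array, old in red, young in blue and old replicates 3 and 4 as triangles. Among the 9 other arrays r is 0.740 for Acta2 and Tagln (adjusted permutation p = 0.125) and 0.118 for Tagln and X16262_s_at of Myh11. Neither pair passes there, and the contrast between them was not tested.

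Set against the rest of the array, Tagln ranked 2 of 5243 probe sets by r with Acta2, and Acta2 also ranked 2 of 5243 by r with Tagln. Cnn1 ranked 7 for Tagln and 70 for Acta2, and Myh11 ranked 311 for Tagln, 734 for Cnn1 and 688 for Acta2. In the other direction, Tagln ranked 20 and Acta2 137 for Cnn1. The median r of Acta2 with all tested probe sets was -0.011. Without old replicates 3 and 4, Tagln ranked 47 for Acta2 and Acta2 ranked 34 for Tagln, while Cnn1 ranked 91 for Tagln and Tagln ranked 295 for Cnn1. On these arrays Cnn1 ranked 581 for Acta2, and Acta2 ranked 986 for Cnn1. Myh11 ranked 3249 for Acta2, 1981 for Tagln and 2698 for Cnn1.

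Probe sets of the same gene followed each other to different degrees. The Tagln probe sets had r = 0.866 over the 11 arrays and 0.642 without old replicates 3 and 4. The Acta2 probe set rc_AA900769_s_at had r = 0.694 with X06801cds_f_at and 0.536 with X06801cds_i_at, and without old replicates 3 and 4 these were 0.176 and 0.283. On the 9 remaining arrays rc_AA900769_s_at had r = 0.740 with M83107_at of Tagln and 0.362 with M83107_g_at. The coding-sequence probe sets of Acta2 did not follow M83107_at there, with r of -0.0072 and -0.0079, so the relation of Acta2 and Tagln on those arrays rests on the choice of probe set. These within-gene values are descriptions with no test.

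**Figure D4:**
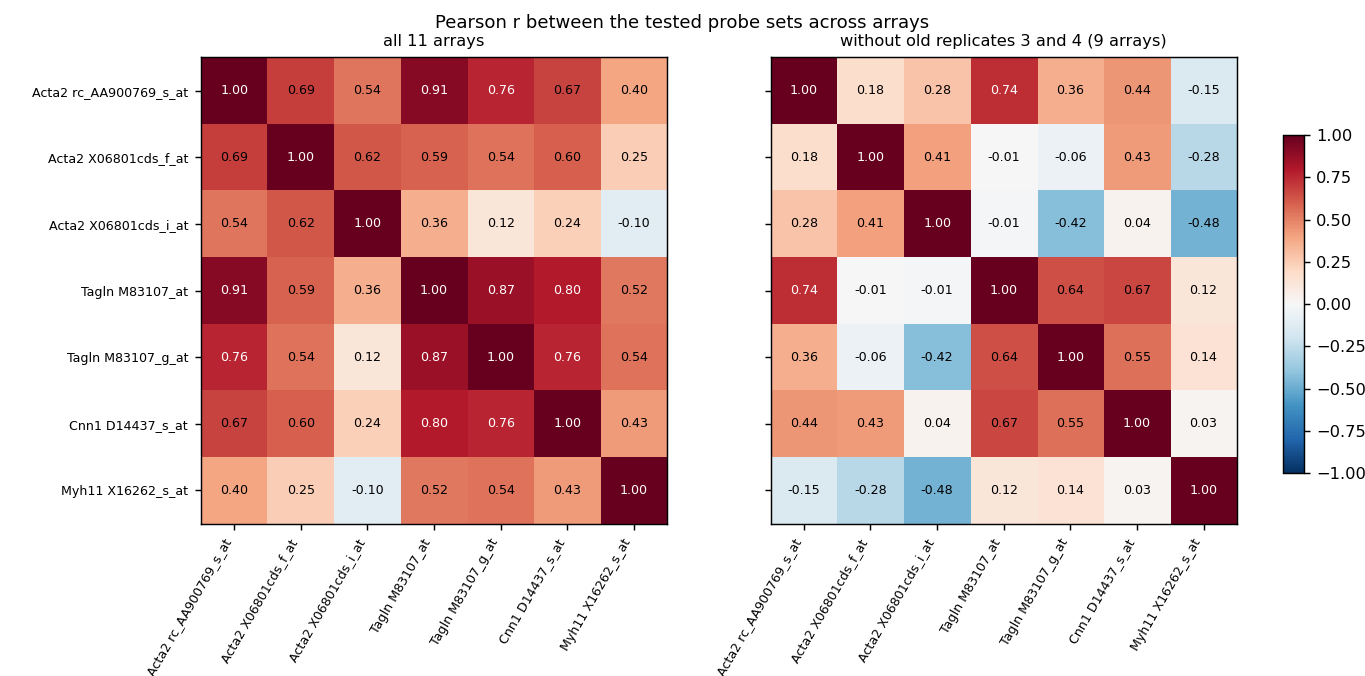
Pearson r between the 7 tested member probe sets across arrays, for all 11 arrays on the left and for the 9 without old replicates 3 and 4 on the right. The block of rc_AA900769_s_at, both Tagln probe sets and Cnn1 keeps r above 0 on the right, from 0.362 to 0.740, and X16262_s_at of Myh11 lies between -0.476 and 0.145 there.

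The 4 probe sets with the symbols of both Acta2 and Actc1 are named for no gene. Of these, rc_AI104567_g_at, X80130cds_f_at and X80130cds_i_at were very bright, with group means of 15.21 to 16.93. Their r with rc_AA900769_s_at of Acta2 was 0.464, -0.163 and 0.023. The dimmer rc_AI104567_at went against the members, with r = -0.747 with Acta2, -0.726 with Tagln and -0.742 with Cnn1. Over the ages rc_AI104567_g_at differed by 0.70 ± 0.33 (SE, limma adjusted p = 0.660), and the other 3 differed by -0.31 to -0.11.

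No other gene of smooth muscle contraction on the lists passed the adjusted threshold. The list of filament, light chain and adhesion genes had 15 tested members of 30, of which 6 were higher and 9 lower in old, with 0 called by limma, 1 at an unadjusted p under 0.05 and a median difference of -0.033, which was -0.25 without old replicates 3 and 4. The smallest p values belonged to Des, the intermediate filament protein desmin, at -0.86 ± 0.33 (SE), Tln1, the adhesion protein talin, at -1.36 ± 0.69, Csrp1, a LIM protein of smooth muscle, at 0.73 ± 0.44, and Hspb6, a small heat shock protein of muscle, at -0.42 ± 0.31. Des and Hspb6 are abundant in heart muscle cells as well. The list of calcium, kinase, cyclic GMP and receptor genes that control contraction had 18 tested members of 37, with 11 higher, 7 lower, 0 called by limma, 0 at an unadjusted p under 0.05 and a median of 0.27, which was 0.076 without old replicates 3 and 4 and -0.022 with array medians centred. It was led by Adra1a, an alpha-1 adrenergic receptor, at 1.27 ± 0.66 (SE), Gucy1a1, a subunit of the nitric oxide receptor, at 1.23 ± 0.66, and the receptors Adra1d and Adra1b at -1.05 ± 0.63 and -0.77 ± 0.47. Its member Pln is also on the list of heart muscle genes given below, so this list does not read smooth muscle alone. Over all 3206 genes tested the median was -0.0053 and 6.86% had an unadjusted p under 0.05. Singled out after its values were seen, Myl9, the regulatory light chain of smooth muscle myosin, had r = 0.71 with Acta2, 0.74 with Tagln, 0.80 with Cnn1 and 0.54 with Myh11 over the 11 arrays. On the 9 arrays other than old replicates 3 and 4 these were 0.20, 0.28, 0.62 and 0.13.

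Most markers of the other vessel wall cells had lower means in old, without a call. Endothelial markers, which include Pecam1, Kdr, Flt1 and Nos3, had 17 tested members of 36, with 6 higher and 11 lower in old, 0 called by limma, 1 at an unadjusted p under 0.05 and a median difference of -0.13, which turned to 0.24 within the dim arrays. Cav1, the caveolin of endothelium and smooth muscle, differed by -2.07 ± 0.93 (SE), Fabp4, a fatty acid carrier of capillaries, by 0.81 ± 0.45, Flt1, a receptor of vascular endothelial growth factor, by -0.81 ± 0.51, and Icam1, a leukocyte adhesion molecule, by 0.76 ± 0.53. The mean of the list ran from 8.05 to 9.22 in old, lowest in old replicate 4, and from 8.62 to 9.10 in young. Pericyte markers had 6 tested members of 12, with 1 higher and 5 lower, 0 called by limma, 2 at an unadjusted p under 0.05 and a median of -0.69, which was -0.40 without old replicates 3 and 4. Anpep, a membrane aminopeptidase, differed by -1.54 ± 0.45 (SE), Abcc9, a potassium channel regulator, by -1.52 ± 0.64, Pdgfrb, the pericyte growth factor receptor, by -1.05 ± 0.65, and Ndufa4l2 by -0.33 ± 0.42. The pericyte mean was lowest in old replicates 3 and 4, at 7.64 and 7.83, and the young arrays ran from 8.76 to 9.38.

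By Pearson's r over the 11 arrays, fibroblast and matrix genes were the list that followed Acta2. By rank no relation passed, and Acta2 had rho = 0.609 with the list of filament, light chain and adhesion genes (adjusted permutation p = 0.332). Of 32 relations between a member and a list mean, 1 passed on r, that of Acta2 with the fibroblast and matrix list (r = 0.890, permutation p adjusted over the 32 = 0.00992; rho = 0.709, adjusted permutation p = 0.332). Its r was 0.878 with the age means taken out and 0.382 within the dim arrays. Without old replicates 3 and 4, which are also the 2 arrays farthest from the median of the list, r was 0.648 (exact permutation p = 0.0586). The relation thus did not pass a threshold of 0.05 on the 9 remaining arrays. That list averaged 10.91 and 11.05 in old replicates 3 and 4, and 10.06 to 10.58 in the other 9 arrays. Tagln and Cnn1 had r = 0.787 (permutation p = 0.0046, adjusted p = 0.0736) and 0.659 (permutation p = 0.0278, adjusted p = 0.186) with the same list, and 0.296 and 0.291 without old replicates 3 and 4. Of its 22 tested members of 30, 16 were higher and 6 lower in old, with 0 called by limma, 4 at an unadjusted p under 0.05 and a median difference of 0.40, which was 0.094 without old replicates 3 and 4. Lum, the collagen-binding proteoglycan lumican, differed by 1.19 ± 0.37 (SE), Sparc, a matrix glycoprotein, by -1.18 ± 0.43, S100a4, a calcium-binding protein of fibroblasts, by 0.99 ± 0.37, and Mgp, the matrix Gla protein made by vascular smooth muscle and fibroblasts, by 0.90 ± 0.41.

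**Figure D5:**
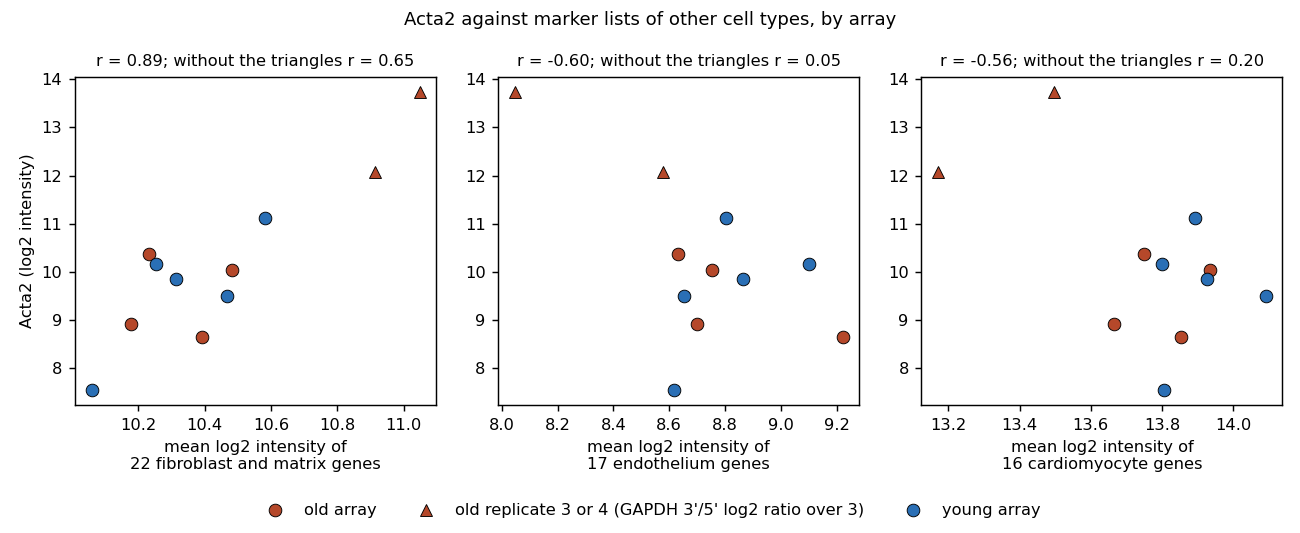
Log2 intensity of Acta2 against the mean log2 intensity of 3 marker lists, with 1 point per array, old in red, young in blue and old replicates 3 and 4 as triangles. The triangles lie at the high end of the fibroblast and matrix list and at the low end of the heart muscle list.

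Heart muscle genes had 16 tested members of 20, with 5 higher and 11 lower in old, 0 called by limma, 1 at an unadjusted p under 0.05 and a median difference of -0.19, which was -0.083 without old replicates 3 and 4. Ckm, the muscle creatine kinase, differed by -0.67 ± 0.30 (SE), Myl3, a ventricular myosin light chain, by -0.46 ± 0.32, Casq2, the cardiac calsequestrin, by -0.67 ± 0.49, and Ryr2, the cardiac calcium release channel, by -0.77 ± 0.59. The mean level of the list was lowest in old replicates 3 and 4, at 13.17 and 13.50, and lay between 13.66 and 14.09 in the other arrays. With this list Acta2 had r = -0.561 and Tagln -0.684 (permutation p = 0.0789 and 0.0185, adjusted p = 0.186 for both), and 0.202 and -0.177 without those arrays. Acta2 had r = -0.602 with the endothelial list and -0.548 with the pericyte list (adjusted permutation p = 0.186 for both). Its r was 0.498 with the list of filament, light chain and adhesion genes (adjusted permutation p = 0.204). Without old replicates 3 and 4 these 3 values were 0.050, 0.112 and 0.552. Blood cell genes had 8 tested members of 18, with 7 higher and 1 lower, 0 called by limma, 1 at an unadjusted p under 0.05 and a median of 0.66, which was 0.34 without young replicate 4 and 0.37 with array medians centred. Lyz2, the lysozyme of macrophages, differed by 1.49 ± 0.65 (SE), Cd74, the invariant chain of antigen presentation, by -0.52 ± 0.26, and the beta globins Hbb and Hbb-b1 by 1.71 ± 0.93 and 1.29 ± 0.81. Within the bright arrays, with their 1 young array, Hbb and Hbb-b1 were called by limma, at 6.74 ± 0.99 (SE, adjusted p = 0.0041) and 5.28 ± 0.91 (SE, adjusted p = 0.0120). Skeletal muscle and atrial genes had 12 tested members of 20, with 9 higher and 3 lower, 0 called by limma, 3 at an unadjusted p under 0.05 and a median of 0.65, which was 0.028 without old replicates 3 and 4. Mybpc1, a myosin-binding protein of skeletal muscle, differed by 2.26 ± 0.63 (SE), Nppa, the atrial natriuretic peptide, by 1.18 ± 0.49, and Tnnt3, the fast skeletal troponin T, by 1.01 ± 0.60, and Ckm is on this list as well. Old replicate 4 was the highest array on both of these lists, at 11.78 and 10.64. The part of these cell types in the levels of the members was not tested.

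With the 4 members themselves set apart, the genes most like each member were found by Pearson's r over the 11 arrays, with 1 probe set per gene, as a description. For Acta2 they were Dut (r = 0.887), Cltc (0.843), Srsf2 (0.796), Cbfa2t2 (0.794) and Naa20 (0.777), below Tagln itself (0.908), and without old replicates 3 and 4 these 5 had r from 0.318 to 0.776. For Tagln they were Smo (0.816), Rcn3 (0.806), Hivep2 (0.794), Chrne (0.793) and Cr1l (0.783), with Acta2 (0.908) above them all and Cnn1 (0.797) among them, and without those arrays they had r from 0.495 to 0.689. For Cnn1 they were Ankib1 (0.912), Fntb (0.906), Cr1l (0.882), Rcn3 (0.870) and Tgfb3 (0.858), the last a transforming growth factor, and without those arrays they had r from 0.794 to 0.909. For Myh11 they were Ptprm (0.866), Chrne (0.837), Timp2 (0.823), Zmat3 (0.821) and Cd9 (0.808), with r from 0.714 to 0.793 without those arrays. Rcn3 and Cr1l stood among the 5 nearest genes of both Tagln and Cnn1, and Chrne among those of both Tagln and Myh11. These genes were picked from 5244 probe sets for their r over 11 arrays, so the values have no test.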

How the data were processed

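The authors' deposited table holds 1 linear intensity per probe set for each of 11 arrays, already scaled: the 2% trimmed means lay between 500.47 and 500.96. Which software made the values is not given in sources used here. Values under the 20th percentile (47.4) were set to it before taking log2, which understates the change of dim probe sets. Left out were 59 controls and all probe sets with a mean log2 value under the 40th percentile, and 5244 were tested with limma 3.58.1 in R 4.3.3 (lmFit, eBayes with trend, Benjamini-Hochberg adjustment). The probe set with the highest mean stands for a gene. Correlations used 100000 permutations, or all of them with fewer than 10 arrays (Python 3.11.15, numpy 2.4.6). Symbols came from GEO's platform annotation, where 7006 probe sets had a single symbol, 308 had more than 1 and 1426 had none. Genes of a list were named by smallest p, up to 4, and similar genes by r, 5 per member with the members set apart. The members and lists were chosen with earlier results of these data known. The scripts were tested on simulated data. Precision is limited by the number of arrays: a difference had a median SE of 0.56. Alternatives were other floors and filters, other scaling, no trend, array weights, blocks, subsets of arrays and other probe set choices.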

Additional observations from a re-analysis of the deposited data

Results flagged for a closer look

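Of 34 groups of arrays checked (9 member probe sets and 8 list means in each age group), 3 held an array far from the rest of its group by Dixon's criterion, which flags about 1 in 20 groups by chance. For the list of other smooth muscle filament genes, old replicate 6 averaged 9.62, against 10.26 or more in the other old arrays. On the Myh11 probe set X16261_i_at, old replicate 6 read 5.58 and young replicate 2 read 5.65, while the other arrays of their groups sat at the floor of 5.57, so these values mark the floor and not a level.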

How the results depend on the processing

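Limma called 0 probe sets over all arrays, also at a threshold of 0.1, and 0 to 2 without 1 array (2 without old replicate 5), with 5 called among the bright arrays alone (4 globin probe sets and 1 of Cox6c, named after its values were seen) and 1 among the dim arrays alone. No member was called under any of the alternatives run. The scaling matters for direction, since the median of all probe sets other than controls was 0.29 higher in old (7.78 against 7.49): with medians centred, the differences were 0.71 for Acta2, 0.83 for Tagln, 0.82 for Cnn1 and -0.041 for Myh11. Tagln and Cnn1 stayed higher in old under every alternative that tested them. The filter at the 60th percentile left Cnn1 out. Acta2 turned to -0.017 with array weights, -0.82 in the dim arrays and -0.14 without old replicates 3 and 4. Myh11 turned to -0.59 without old replicates 3 and 4. Without 1 array, the differences ran from 0.37 to 1.39 for Acta2, 0.76 to 1.42 for Tagln, 0.70 to 1.65 for Cnn1 and -0.15 to 0.76 for Myh11, which was below 0 without old replicate 3, old replicate 4 or young replicate 1. X06801cds_i_at of Acta2 turned to -0.45 with array weights, -0.34 with the spike-in class as block, -1.51 in the dim arrays and -0.19 without old replicates 3 and 4, and ran from -0.11 to 0.91 without 1 array. Replicate numbers are shared by the ages, but same-numbered arrays had r from -0.251 to 0.246 over 5 pairs and 1 of 5 old arrays correlated best with its own number, so they share only a number. With the replicate block (10 arrays) limma called 0, and the members differed by 1.34, 1.42, 1.65 and 0.61.

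The correlation of Acta2 and Tagln lost its call in the dim arrays (r = 0.574), without old replicates 3 and 4 (0.740) and with the mean of all probe sets (0.665), and ran from 0.844 to 0.944 without 1 array. That of Tagln and Cnn1 lost it in the old arrays alone (0.838), in the dim arrays (0.528) and without old replicates 3 and 4 (0.665), and ran from 0.739 to 0.838 without 1 array. That of Acta2 and Cnn1 lost it with a floor at the 10th percentile (0.618), with no floor (0.622), with age means taken out (0.633) and spike-in class too (0.632), in the old (0.744) or dim arrays (0.125), without old replicates 3 and 4 (0.438), without the 2 farthest arrays (0.671), with the mean of all probe sets (0.582), and without any of old replicates 2, 3, 4, 6 and young replicates 2, 3, 4 (0.606 to 0.747 over all arrays left out in turn). Acta2 and Myh11 turned to -0.331 in the dim arrays and -0.145 without old replicates 3 and 4, and ran from 0.240 to 0.510 without 1 array. Tagln and Myh11 passed by Spearman's rho (0.664), with the mean of all probe sets (0.813) and without old replicate 5, with 0.399 to 0.699 without 1 array, and Cnn1 and Myh11 passed without old replicate 5, with 0.228 to 0.696. The cause of these changes was not tested, and each subset also held fewer arrays. Of the genes named from lists, some turned sign: Hspb6 (0.40) and Nppa (-0.40) in the bright arrays, Cav1 (0.29), Icam1 (-0.060), Abcc9 (0.036) and Casq2 (0.37) in the dim arrays, Casq2 with the spike-in block (0.22), and Ndufa4l2 in the bright arrays (0.44) and without old replicates 3 and 4 (0.017). The list values, the genes of the lists and the relation of Acta2 with the fibroblast list were put through the alternatives after the data were seen.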
